A study of Homo sapiens with 9 samples.

Results

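The genes described here are 9 genes of the NRF2 antioxidant pathway, chosen by name from 17958 genes measured on the array: NFE2L2, KEAP1, GCLC, GCLM, TXNRD1, SRXN1, NQO1, HMOX1 and SOD2. Each of the 9 was read by 1 probe set, so no choice between probe sets was needed. The cells were HCT 116, an established human colorectal cancer line, and RNA was taken 24 hours after transfection. The control group carried the empty vector pcDNA3, the KL-FL group a vector for mouse full-length klotho, and the KL1 group a vector for the KL1 subdomain of mouse klotho, with 3 arrays in each group and 9 in all. The transfection reagent was JetPEI or polyethylenimine, and which array received which is not given in the sources used here. Whether the 3 replicates of a group were grown apart is not in the labels, so every p-value here is set against array-to-array spread that can be technical. The labels give no share of cells that took up a vector, and in RNA from a whole culture fewer cells expressing a gene and less RNA per cell cannot be told apart.

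NRF2, encoded by NFE2L2, is a transcription factor that KEAP1 holds in the cytoplasm and hands to a ubiquitin ligase for destruction. Oxidants and electrophiles modify cysteines of KEAP1, NRF2 then builds up, enters the nucleus with a small MAF partner and binds antioxidant response elements near genes for glutathione synthesis, thioredoxin reduction, quinone reduction and heme breakdown. The kinase PERK, one of the sensors of the unfolded protein response named in the series title, is known to phosphorylate NRF2. NRF2 is controlled mainly through its protein, which these RNA arrays did not measure.

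The core of the antioxidant response element, TGACNNNGC, was looked for on both strands of RefSeq promoter windows (GRCh38.p14), which run from 250 bases before to 50 bases after a start site. Of 35116 windows over all genes, 13.3% held the core. The 9 genes matched 14 windows of 8 genes, some with several start sites, and HMOX1 had no entry. The core lay in 4 of the 14 windows, belonging to GCLM, KEAP1 and TXNRD1, at 6 places. Those 6 places are shown because this element is how NRF2 reaches its targets. Each is printed 5′ to 3′ on the strand that reads as the core, with the core in capitals and 10 bases on each side.
GCLM, chr1:93909446-93909474, + strand: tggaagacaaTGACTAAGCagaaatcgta
KEAP1, chr19:10502784-10502812, + strand: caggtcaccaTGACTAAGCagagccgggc
KEAP1, chr19:10502807-10502835, - strand: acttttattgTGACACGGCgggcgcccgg
TXNRD1, chr12:104215670-104215698, + strand: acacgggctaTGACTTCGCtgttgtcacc
TXNRD1, chr12:104215761-104215789, - strand: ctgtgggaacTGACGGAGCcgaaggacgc
TXNRD1, chr12:104286920-104286948, - strand: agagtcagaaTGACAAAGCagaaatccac
The GCLM match and the first KEAP1 match hold the same 9 letters, TGACTAAGC, and lie 26 and 23 bases before their start sites. KEAP1 carries both of its matches at its start site at chr19:10502771, the second of them 46 bases before it. TXNRD1 has a match 91 bases before its start site at chr12:104215779, another that ends on that start site, and 1 more 94 bases before a later start site at chr12:104287032. A match is a description of the letters, and binding was not measured. Bases outside the windows were not searched, so a window without the core does not show that a gene lacks the element.

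None of the 9 genes passed the test in any comparison, and all 27 of their 95% intervals included 0. With full-length klotho the differences from control ran from -0.095 for HMOX1 to 0.048 for GCLC on the log2 scale, with 5 genes higher, 4 lower and a median of 0.0021, where 57.3% of all genes were higher. With KL1 they ran from -0.10 for GCLM to 0.063 for KEAP1, with 4 higher, 5 lower and a median of -0.016, where 52.1% of all genes were higher. Over all genes the median difference was 0.0099 with KL-FL and 0.0026 with KL1. In this fit, the 95% intervals give a range for the change in RNA of the whole culture, and other fits move their bounds. With KL-FL the lowest bound was a 14.5% fall, for HMOX1, and the highest a 12.9% rise, for GCLC. With KL1 the lowest was a 15.6% fall, for GCLM, and the highest an 11.8% rise, for NQO1. The intervals are per gene and are not widened for the number of genes.

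The test was limma's moderated test, fitted to all 9 arrays and all 17958 genes, with Benjamini-Hochberg adjustment and a threshold of 0.05. It called 1 gene (0.00557% of those tested) in each comparison with control, DDIT3, which encodes the stress factor CHOP, and 0 genes between KL-FL and KL1. At an unadjusted p under 0.05 there were 7.16% of all genes with KL-FL, 5.1% with KL1 and 5.05% between the klotho vectors, 906 genes in the last case. Of the 9 genes, 0 had an unadjusted p under 0.05 in any comparison in this limma fit to all 9 arrays. Their lowest adjusted p was 0.727, 0.927 and 0.855 in the 3 comparisons. In some fits to fewer arrays HMOX1 went under 0.05 unadjusted with KL-FL, as given below. With the replicate number as a block the call in KL1 against control ended, leaving 0 genes, as it did with KL-FL. The array least like the rest was KL-FL replicate 3, whose median correlation with them was 0.994, against 0.996 to 0.998 for the remaining arrays. The endogenous KL probe set read 3.05 in control, 3.19 with KL-FL and 3.19 with KL1, and since it was designed on the human gene and the vectors carry mouse klotho, it checks the labels only weakly. The epithelial markers EPCAM and KRT8 read 9.77 and 10.74 in control, and the intestinal markers CDX2, CDX1, KRT20, LGALS4 and VIL1 read 6.50, 4.95, 4.33, 4.27 and 3.78. Of the leukocyte markers CD68 read 6.20 there, and CD14, LYZ, CD3E and PTPRC read 3.54, 3.43, 2.83 and 2.74. Of the fibroblast and endothelial markers COL1A1 and COL3A1 read 5.73 and 4.24 in control. CDH5, PECAM1, PDGFRB, VWF and DCN read 3.62, 3.50, 3.47, 3.43 and 2.54. These 7 log2 values summed to 26.46 to 26.58 in control, 26.61 to 26.81 with KL-FL and 26.70 to 26.76 with KL1. The sums of the epithelial and leukocyte lists overlapped between groups. The cause of this difference was not tested.

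**Figure D1:**
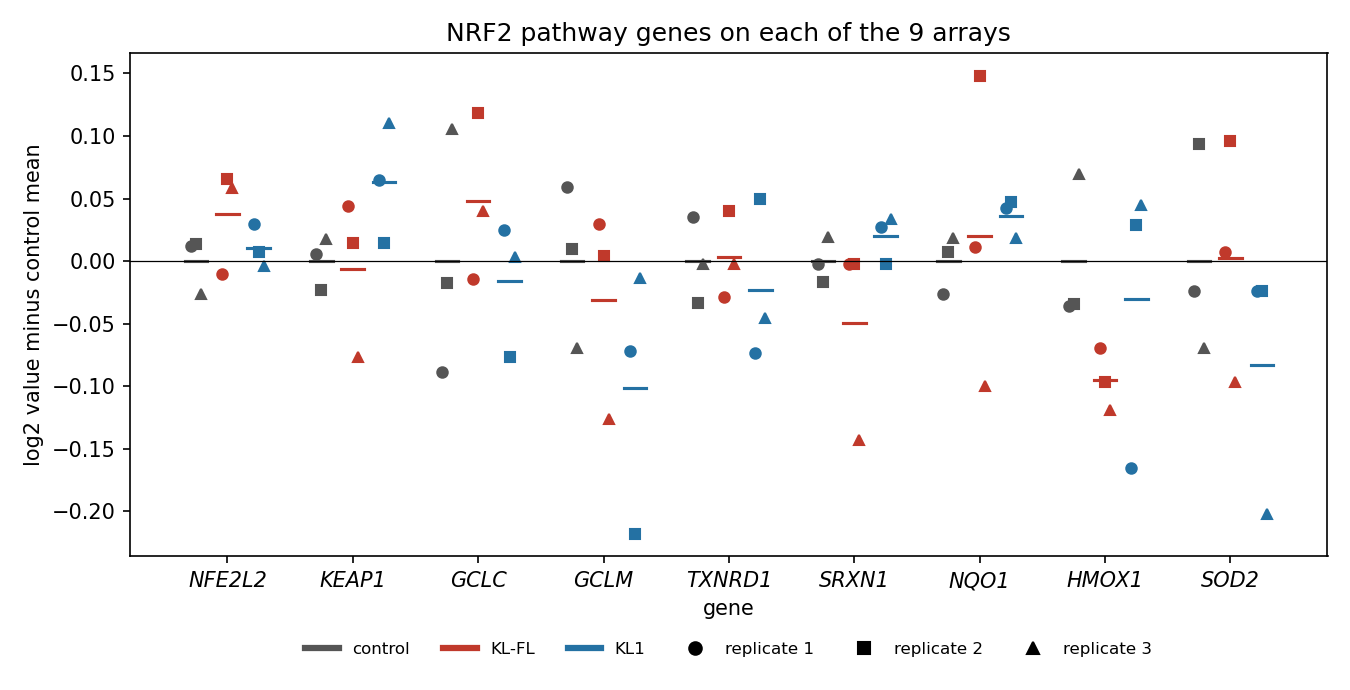
Log2 value of each of the 9 genes on every array, minus the mean of the 3 control arrays (vertical axis), by gene (horizontal axis). Grey is control, red KL-FL and blue KL1, symbols mark the replicate and bars the group means; the red triangle of KL-FL replicate 3 is the lowest point for KEAP1, SRXN1 and NQO1.

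NFE2L2 (probe set 8056977, chromosome 2), the gene for NRF2 itself, read 8.87, 8.87 and 8.84 on the control arrays. It read 8.85, 8.93 and 8.92 with KL-FL and 8.89, 8.87 and 8.86 with KL1. The values of the 3 groups overlapped, and the whole range over 9 arrays was 0.091. The group means were 8.86 ± 0.023 (SD, n = 3), 8.90 ± 0.042 (SD, n = 3) and 8.87 ± 0.017 (SD, n = 3) for control, KL-FL and KL1. The difference from control was 0.038 (95% interval -0.034 to 0.11) with KL-FL and 0.011 (-0.061 to 0.083) with KL1. NFE2L2 had the narrowest range of the 9 genes.

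KEAP1 (probe set 8034034, chromosome 19), the sensor that keeps NRF2 low, read 7.31, 7.29 and 7.33 in control and 7.35, 7.32 and 7.23 with KL-FL. On the KL1 arrays it read 7.37, 7.32 and 7.42. KL1 replicates 1 and 3 lay above every control, KL1 replicate 2 lay within the control range, and KL-FL replicate 3 was the lowest of all 9 arrays. Its difference from control was -0.0061 (95% interval -0.098 to 0.085) with KL-FL, and 0.029 without KL-FL replicate 3. With KL1 the difference was 0.063 (-0.028 to 0.15), and between KL-FL and KL1 it was -0.069 (-0.16 to 0.022). This last comparison had the smallest unadjusted p of the 27 in the limma fit without a block, at 0.120 (adjusted p = 0.855). Its difference was -0.034 without KL-FL replicate 3. Between arrays of the same replicate number, which may pair control and KL1, KEAP1 was higher with KL1 by 0.059, 0.038 and 0.093. Of all genes, 13.3% were higher in all 3 pairs and 12.1% were lower in all 3. With the replicate number as a block the adjusted p of KEAP1 was 0.912 in limma.

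KEAP1 also had the smallest p of the 9 genes over all 3 groups in limma's F-test, at 0.219 (adjusted p = 0.832). The 5 genes whose values followed it most closely over the 9 arrays, by root mean square difference after centring each gene on its own mean, were CYP27B1, ADGRD2, APLN, OSGIN1 and STAR. Their differences from KEAP1 were 0.016 to 0.020 on the log2 scale, where KEAP1 itself varied with a root mean square of 0.050. They were picked from all genes for this likeness, and the points share the same 9 arrays, so the values are a description. OSGIN1, a gene induced by oxidative stress, differed from control by -0.022 with KL-FL and 0.061 with KL1, and APLN, a secreted peptide hormone, by 0.011 and 0.073.

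GCLC (probe set 8127158, chromosome 6) and GCLM (probe set 7917779, chromosome 1) encode the catalytic and the modifier subunit of glutamate-cysteine ligase, which makes the first bond of glutathione. GCLC read 7.91, 7.98 and 8.10 in control, 7.98, 8.12 and 8.04 with KL-FL, and 8.02, 7.92 and 8.002 with KL1. The control arrays alone spanned nearly the whole range, from the lowest of the 9 arrays to the second highest. GCLC differed from control by 0.048 (95% interval -0.080 to 0.18) with KL-FL and -0.016 (-0.14 to 0.11) with KL1. The KL-FL difference was 0.0037 without control replicate 1 and 0.10 without control replicate 3.

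GCLM read 5.79, 5.75 and 5.67 in control, 5.76, 5.74 and 5.61 with KL-FL, and 5.66, 5.52 and 5.72 with KL1. KL1 replicate 2 was the lowest of the 9 arrays and KL1 replicate 3 lay within the control range. The means were 5.73 ± 0.065 (SD, n = 3), 5.70 ± 0.084 (SD, n = 3) and 5.63 ± 0.11 (SD, n = 3) for control, KL-FL and KL1. The KL1 difference of -0.10 (95% interval -0.24 to 0.041) was the largest in size of the 18 differences from control, and it was -0.043 without KL1 replicate 2. With KL-FL the difference was -0.031 (-0.17 to 0.11), and 0.017 without KL-FL replicate 3. With KL-FL the mean of GCLC was above and that of GCLM below control, and with KL1 both means were below it.

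TXNRD1 (probe set 7958174, chromosome 12), which reduces thioredoxin with NADPH, read 8.50, 8.43 and 8.46 in control, 8.43, 8.50 and 8.46 with KL-FL, and 8.39, 8.51 and 8.42 with KL1. The lowest and the highest of the 9 arrays were both KL1 arrays. Its difference from control was 0.0031 (95% interval -0.088 to 0.094) with KL-FL, a sign that turns when arrays are centred on their medians, and -0.023 (-0.11 to 0.067) with KL1, a sign that turns under quantile normalization.

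SRXN1 (probe set 8064375, chromosome 20), sulfiredoxin, which repairs over-oxidized peroxiredoxins, read 8.01, 7.99 and 8.03 in control, 8.01, 8.01 and 7.87 with KL-FL, and 8.04, 8.01 and 8.04 with KL1. On 4 arrays (control replicate 1, KL-FL replicates 1 and 2 and KL1 replicate 2) the deposited value was the same to 5 decimals. Such ties are common in the table: 68.5% of genes had the same value on at least 2 arrays and 23.3% on at least 4. The KL-FL difference of -0.049 (95% interval -0.14 to 0.045) was -0.0021 without KL-FL replicate 3, the lowest of the 9 arrays. With KL1 the difference was 0.020 (-0.074 to 0.11). SRXN1 was higher with KL1 in all 3 pairs of the same replicate number, by 0.030, 0.015 and 0.015, as in 13.3% of all genes. With the replicate number as a block its adjusted p was 0.968 in limma.

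NQO1 (probe set 8002303, chromosome 16), the quinone reductase often used as a readout of NRF2 activity, read 9.84, 9.87 and 9.88 in control and 9.91, 9.91 and 9.88 with KL1. On the KL-FL arrays it read 9.87, 10.01 and 9.76, so the same group held the highest and the lowest of the 9 arrays. No KL1 array lay below the highest control, and KL1 replicate 3 and control replicate 3 had the same value to 5 decimals. The SD was 0.12 with KL-FL against 0.024 in control and 0.015 with KL1 (n = 3 each). NQO1 differed from control by 0.020 (95% interval -0.11 to 0.15) with KL-FL and 0.036 (-0.089 to 0.16) with KL1. The KL-FL difference was 0.080 when KL-FL replicate 3 was left out and -0.044 when KL-FL replicate 2 was, with limma adjusted p of 0.667 and 0.713.

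HMOX1 (probe set 8072678, chromosome 22), heme oxygenase 1, breaks heme down to biliverdin, iron and carbon monoxide and is among the most inducible NRF2 targets. It read 7.33, 7.33 and 7.44 in control and 7.30, 7.27 and 7.25 with KL-FL. All 3 KL-FL arrays lay below all 3 controls, which was so for 3.25% of all genes. HMOX1 was the 1 gene of the 9 whose KL-FL and control arrays did not overlap, where 10.4% of all genes did not, and 0 of the 9 did not overlap between KL1 and control, where 9.47% did not. The difference was -0.095 (95% interval -0.23 to 0.036, adjusted p = 0.727 in limma), and it lay between -0.11 and -0.060 as each array was left out in turn. That interval uses the spread of all 3 groups, and the SD of HMOX1 was 0.061 in control, 0.025 with KL-FL and 0.12 with KL1. In limma the unadjusted p was 0.134 with all 9 arrays and 0.047 with the 6 arrays compared alone (adjusted p = 0.745). Without KL1 replicate 1 it was 0.035 in limma (adjusted p = 0.738). On the KL1 arrays HMOX1 read 7.20, 7.39 and 7.41, with replicate 1 the lowest of the 9 arrays and the others within the control range. The KL1 difference was -0.031 (-0.16 to 0.10), and 0.037 without KL1 replicate 1.

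SOD2 (probe set 8130556, chromosome 6), the mitochondrial superoxide dismutase, is known as a target of NF-kappaB as well. It read 6.62, 6.73 and 6.57 in control, 6.65, 6.74 and 6.54 with KL-FL, and 6.62, 6.62 and 6.44 with KL1. The 3 groups overlapped, with KL1 replicate 3 the lowest of the 9 arrays. SOD2 differed from control by 0.0021 (95% interval -0.15 to 0.16) with KL-FL, a sign that turns when arrays are centred on their medians, and by -0.083 (-0.24 to 0.072) with KL1. The KL1 difference was -0.024 without KL1 replicate 3.

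**Figure D2:**
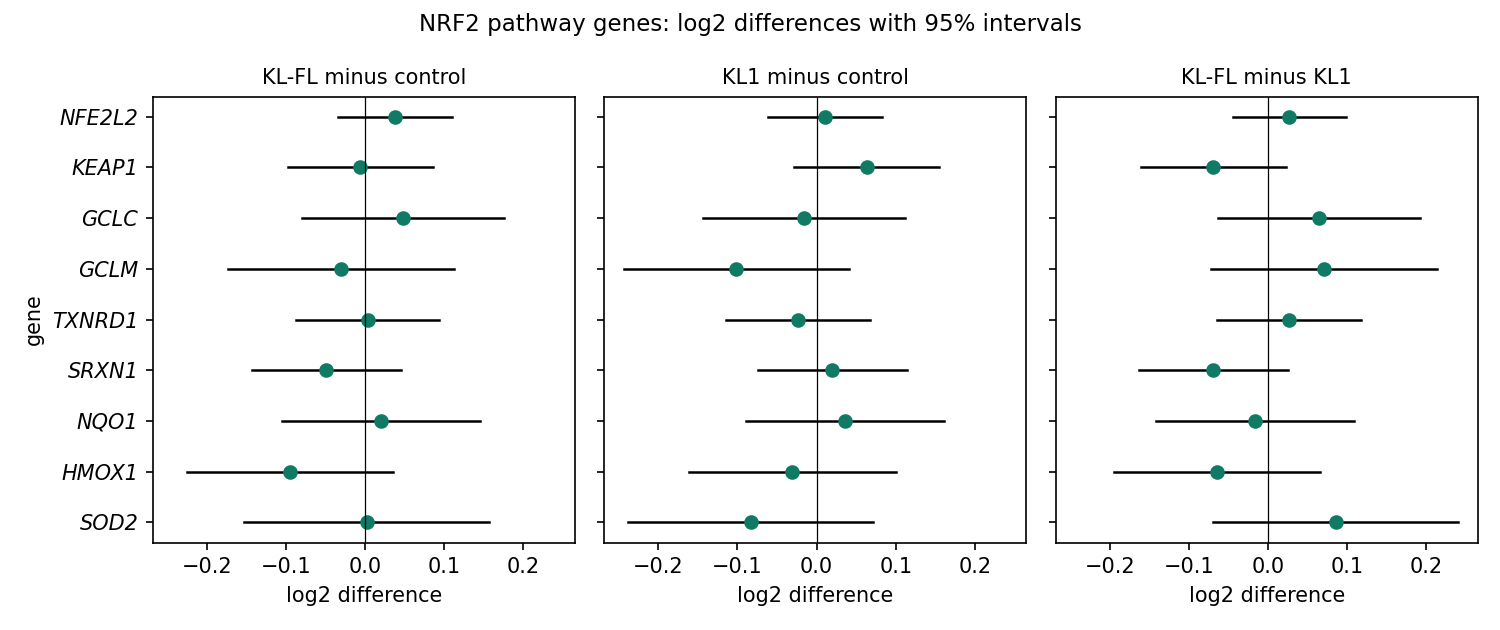
Log2 difference of each of the 9 genes (points) with its 95% interval from limma (lines), in each of the 3 comparisons, by gene. All 27 intervals cross the line at 0, and the farthest bounds are -0.24 and 0.24.

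The full-length protein and the subdomain were also set against each other. Between KL-FL and KL1 the 9 differences ran from -0.069 for KEAP1 to 0.085 for SOD2, with 5 genes higher with KL-FL and 4 lower, where 54.4% of all genes were higher. The groups overlapped in all 9 genes, where 6.88% of all genes did not overlap. The widest bounds were a 12.6% lower level, for HMOX1, and an 18.1% higher level, for SOD2, with KL-FL relative to KL1. SRXN1 differed by -0.069 (95% interval -0.16 to 0.025), a value that was -0.022 without KL-FL replicate 3. NQO1 differed by -0.016 (-0.14 to 0.11), and by 0.043 without that array. The SOD2 difference of 0.085 (-0.070 to 0.24) was 0.026 without KL1 replicate 3 and 0.14 without KL-FL replicate 3. GCLM differed by 0.071, and by 0.012 without KL1 replicate 2, and HMOX1 by -0.065, between -0.13 without KL1 replicate 1 and -0.027 without KL1 replicate 3.

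The 9 genes did not all follow 1 order across arrays. KL-FL replicate 3 was the lowest array for KEAP1, SRXN1 and NQO1 and the second lowest for GCLM, HMOX1 and SOD2, yet it was the second highest for NFE2L2. KL-FL replicate 2 was the highest for NFE2L2, GCLC, NQO1 and SOD2. The median of the 9 deviations from the control mean was -0.097 on KL-FL replicate 3 and 0.040 on KL-FL replicate 2, and between -0.017 and 0.025 on the other 7 arrays. Over all genes the array median was also lowest on KL-FL replicate 3, at 5.376, and highest on KL-FL replicate 2, at 5.417. The control arrays had medians of 5.386, 5.399 and 5.383. The shift of the array median on KL-FL replicate 3 was thus smaller than that of the 9 genes. The part of array quality in the deviations of the 9 genes was not tested.

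**Figure D3:**
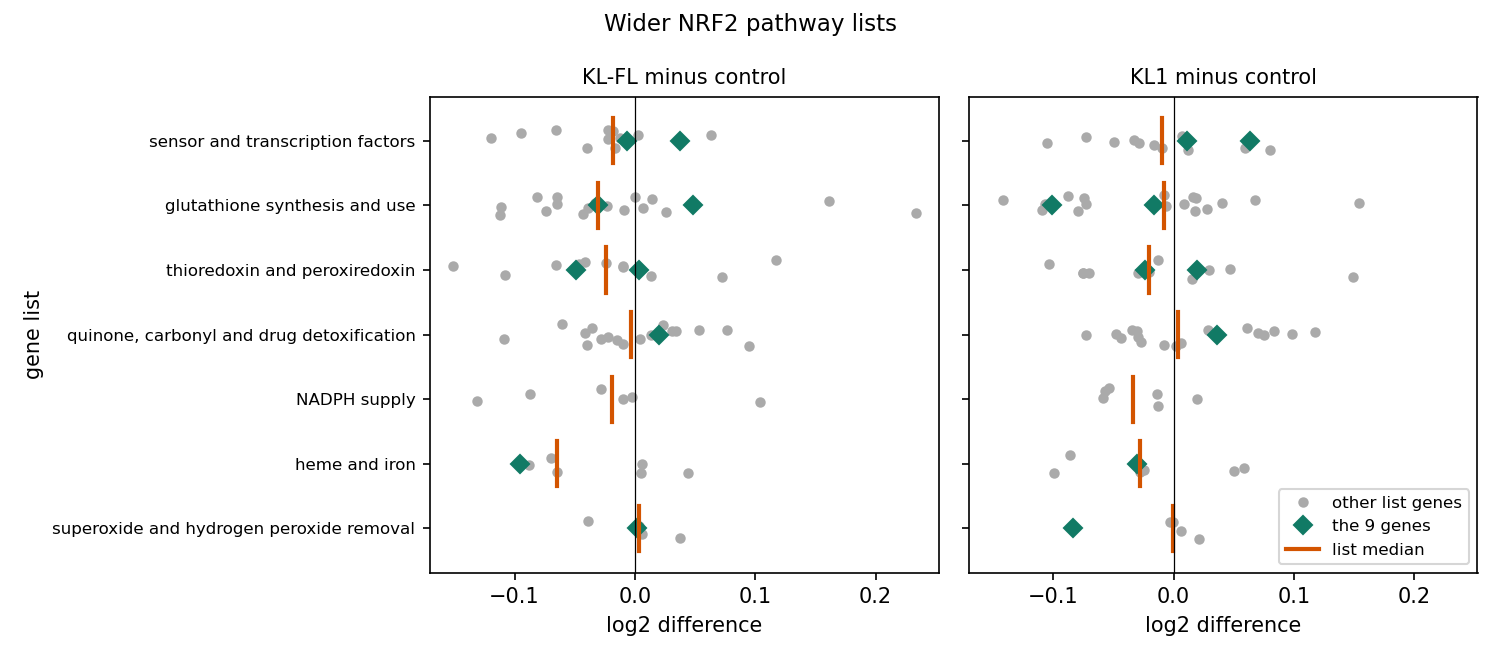
Log2 difference from control (horizontal axis) of genes in 7 lists of the wider pathway (vertical axis), with KL-FL on the left and KL1 on the right. Green diamonds are the 9 genes, grey dots the other 72 measured genes and orange bars the list medians, which lie between -0.065 and 0.0041.

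The rest of the pathway was described by 80 further genes in 7 lists, of which 72 were measured by a probe set naming 1 gene. With KL-FL 25 of the 72 were higher than control and 46 lower, with a median of -0.020, where 57.3% of all genes were higher. None passed in limma, and 5 had an unadjusted p under 0.05, 2 higher and 3 lower, where 7.16% of all genes did. Without KL-FL replicate 3 the median of the 72 was 0.0097, so its sign rested on that array. The median of all genes rose as well, from 0.0099 to 0.018. With KL1 30 were higher and 42 lower, with a median of -0.011, where 52.1% of all genes were higher. None passed, and 4 had an unadjusted p under 0.05, 2 in each direction, where 5.1% of all genes did.

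By role, the sensors and transcription factors had 3 of 13 higher with KL-FL and 6 of 13 with KL1, the 9 genes counted in. Over all genes 57.3% were higher with KL-FL and 52.1% with KL1. Glutathione genes had 6 of 19 higher with KL-FL and 8 with KL1, and thioredoxin and peroxiredoxin genes 4 and 5 of 13. Of the detoxification enzymes and transporters 9 of 18 were higher with KL-FL and 10 with KL1. Enzymes that supply NADPH had 1 of 6 higher in each comparison, heme and iron genes 3 and 2 of 7, and genes that remove superoxide and hydrogen peroxide 4 and 2 of 5. The list medians lay between -0.065, for heme and iron genes with KL-FL, and 0.0041, for detoxification with KL1. Both comparisons use the same control arrays. The lists were not counted again without KL-FL replicate 3, on which the sign of the KL-FL median of the 72 genes rested.

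SLC7A11, the cystine importer that feeds glutathione synthesis and is a target of both NRF2 and ATF4, read 8.55, 8.31 and 8.43 in control. It read 8.75, 8.52 and 8.72 with KL-FL and 8.59, 8.55 and 8.61 with KL1. All 3 KL1 arrays lay above every control, as for 921 of all 17958 genes and 2 of the 72. KL-FL replicate 2 lay within the control range. The difference was 0.23 (SE 0.072, adjusted p = 0.682 in limma) with KL-FL, the smallest p of the 72 genes, and 0.15 (SE 0.072, adjusted p = 0.927) with KL1. It ran from 0.17 to 0.31 with KL-FL as each array was left out.

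PGD, which makes NADPH in the pentose phosphate pathway, read 9.94, 10.03 and 10.03 in control and 9.88, 9.94 and 9.79 with KL-FL. KL-FL replicate 2 equalled the lowest control to 5 decimals. The difference was -0.13 (SE 0.043, adjusted p = 0.688 in limma), and -0.092 without KL-FL replicate 3. GSTM2, a glutathione transferase of a family with similar sequences, read 3.95, 3.79 and 3.96 in control and 4.14, 3.98 and 4.06 with KL-FL. All 3 KL-FL arrays lay above every control, as for 1281 of all 17958 genes and 1 of the 72, and 2 of the 72 lay wholly below. GSTM2 differed by 0.16 (SE 0.058, adjusted p = 0.688 in limma) with KL-FL and by 0.018 with KL1. It lay at the low end of the scale, and which family members its probes read was not tested.

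With KL1 the smallest p-values among the 72 belonged to GLRX2, PRDX1 and MGST2. GLRX2, mitochondrial glutaredoxin, read 5.27, 5.27 and 5.38 in control and 5.41, 5.51 and 5.44 with KL1, a difference of 0.15 (SE 0.047, adjusted p = 0.927 in limma). PRDX1, an abundant cytosolic peroxiredoxin, read 10.24, 10.14 and 10.20 in control and 10.11, 10.07 and 10.10 with KL1, a difference of -0.10 (SE 0.037, adjusted p = 0.927). MGST2, a microsomal glutathione transferase, differed by -0.11 (SE 0.041, adjusted p = 0.927). In each of these 3 genes, picked for their small p, the KL1 arrays did not overlap the controls. Of all 72 genes, 2 lay wholly above and 3 wholly below control with KL1, where 9.47% of all genes did not overlap.

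Between the klotho vectors PRDX1 read 10.18, 10.23 and 10.13 with KL-FL, above all 3 KL1 arrays, a difference of 0.094 (SE 0.037, adjusted p = 0.855 in limma). GSTM2 differed by 0.14 (SE 0.058) and AKR1C2, an aldo-keto reductase with near-identical relatives, by -0.19 (SE 0.072), each with an adjusted p of 0.855. In these 3 genes, picked for their small p, the groups did not overlap. Of all 72 genes, 2 lay wholly above and 1 wholly below with KL-FL, where 6.88% of all genes did not overlap. AKR1C2 read 3.38, 3.56 and 3.47 with KL-FL and 3.57, 3.68 and 3.73 with KL1, at the low end of the scale.

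**Figure D4:**
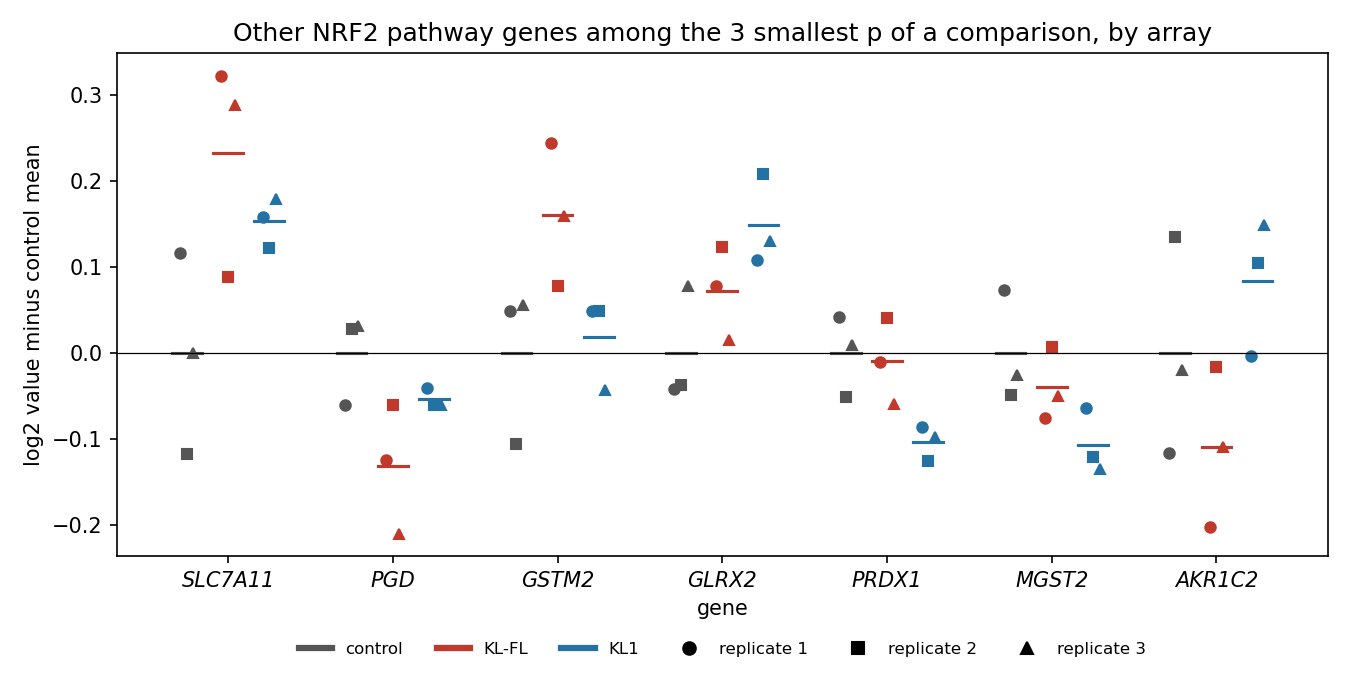
Log2 value on every array, minus the mean of the 3 control arrays (vertical axis), for the 7 other pathway genes that were among the 3 with the smallest p in at least 1 comparison (horizontal axis). Colours and symbols are grey for control, red for KL-FL and blue for KL1 with the replicate by shape; for PRDX1 the 3 blue points lie below all others.

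With array weights, which gave KL-FL replicate 1 a weight of 6.76 and KL-FL replicate 3 a weight of 0.27, limma called 523 genes (2.91% of those tested) between KL-FL and control. Of the 9 genes 0 were among them, with a lowest adjusted p of 0.343 in that comparison. Of the other 72 pathway genes 4 were: SLC7A11 (0.32, adjusted p = 0.036) and GSTM2 (0.23, adjusted p = 0.043) were higher, PGD (-0.13, adjusted p = 0.046) was lower. The other was IDH1 (0.14, adjusted p = 0.047), the cytosolic isocitrate dehydrogenase that makes NADPH, which was higher. In this fit KL-FL replicate 1 carried 89.2% of the weight of its group.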

How the data were processed

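Labelling started from 100 ng of total RNA, per the labels' protocols. What the authors deposited is a table of log2 values, 33297 probe sets by 9 arrays, running from 1.79 to 12.4. The submitters' processing notes name Partek 6.6. How background was corrected, arrays normalized and probes summarized is not given in the sources used here; base 2 was taken from the size of the values. The number of arrays limits the precision, and the table holds no detection call. Probe sets naming 1 gene in the platform annotation (19181) were kept, and the one with the highest mean stood for a gene, which left 17958 genes. The values were fitted with limma 3.58.1 in R 4.3.3 with 3 groups and no covariate, with two-sided tests, and the script was tested on simulated data. Same-numbered control and KL1 arrays deviated together (correlations 0.113, 0.322 and 0.186), so these numbers may pair the arrays; with KL-FL at most 0.097. Genes named are the 9 genes, the transfected gene KL, any gene called over all genes, the 3 wider-list genes with the smallest p in each comparison, and the 5 genes most like the member with the smallest F-test p. IDH1 and the cell type markers quoted are outside that rule. The 9 genes and the lists were chosen with earlier results of these data known.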

Additional observations from a re-analysis of the deposited data

How the results depend on the processing

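Over the alternatives tried, 0 of 459 values of the 9 genes were called, with a lowest limma adjusted p of 0.330, while 26 changed sign. Many of the 459 could not change sign. A gene's difference stays the same without genes of low mean, with every probe set tested and with the 6 arrays compared alone. It also stays the same with own variance, with the replicate block and when an array of the group not compared is left out. The number of genes called with KL-FL against control was 0 with every probe set tested, with the 6 arrays compared alone, with each gene's own variance and with the replicate block, 523 with array weights, and 0 to 1 as each array was left out. With KL1 it was 0 with every probe set, own variance and the replicate block, 2 with array weights, and 0 to 1 with arrays left out. Between KL-FL and KL1 it was 1 with array weights and 1 with own variance. The replicate block changed no call of the 9 genes. Array weights turned the KL-FL difference of NFE2L2 to -0.00091, KEAP1 to 0.038, GCLC to -0.015, GCLM to 0.030 and TXNRD1 to -0.018, and NFE2L2 between KL-FL and KL1 to -0.012. Centring arrays on their medians turned TXNRD1 to -0.0040 and SOD2 to -0.0050 with KL-FL, and quantile normalization turned TXNRD1 to 0.0021 with KL1. With arrays left out, the KL-FL difference ran from -0.031 to 0.029 for KEAP1, -0.065 to 0.017 for GCLM, -0.015 to 0.021 for TXNRD1, -0.044 to 0.080 for NQO1 and -0.045 to 0.052 for SOD2. The KL1 difference ran from -0.0022 to 0.018 for NFE2L2, -0.060 to 0.037 for GCLC, -0.060 to 0.0017 for TXNRD1 and -0.068 to 0.037 for HMOX1, and NQO1 between the klotho vectors from -0.081 to 0.043. The cause of these turns was not tested.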
